A study of Homo sapiens with 14 samples.

Results

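The enzymes that make, activate or inactivate androgens were followed in 2 prostate cancer cell lines. The 10 genes were taken by symbol: CYP17A1, HSD3B1, SRD5A1, SRD5A2, SRD5A3, AKR1C1, AKR1C2, AKR1C3, HSD17B2 and HSD17B4. All 10 were found among the 44591 genes of the LNCaP table and among the 24199 features of the DU145 table. LNCaP is a line from a lymph node metastasis that responds to androgens, and DU145 is a line from a brain metastasis that grows without them. RNA sequencing was compared between parental LNCaP cells and LNCaP-ENZ cells, kept in 20 µM enzalutamide, an antiandrogen, for 30 days, with 1 library each in the labels. In DU145, 3 libraries of cells with a control short hairpin RNA (shCON) were compared with 3 of cells with a hairpin against PAX6 (shPAX6), a transcription factor of eye and brain development. The hairpins were delivered with lentivirus and the cells were selected with puromycin. More than one PAX6 hairpin is described for the study, and the labels do not say which was used. Nothing in the labels says that the libraries of a group came from separate cultures, so p-values measure the spread between these libraries, which may be technical.

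Androgens are built from cholesterol, and prostate cells can also make them from adrenal precursors. CYP17A1, the target of abiraterone, forms the precursor dehydroepiandrosterone, and HSD3B1 converts it to androstenedione. AKR1C3 reduces androstenedione to testosterone, and the steroid reductases SRD5A1 and SRD5A2 reduce testosterone to dihydrotestosterone, the most potent androgen. AKR1C2 inactivates dihydrotestosterone, AKR1C1 inactivates progesterone, and HSD17B2 oxidises testosterone and estradiol to weaker forms. SRD5A3 and HSD17B4 also work outside steroid metabolism. SRD5A3 reduces polyprenol to dolichol, the lipid carrier of N-glycosylation, and HSD17B4 is the bifunctional enzyme of peroxisomal beta-oxidation.

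AKR1C1, AKR1C2 and AKR1C3 are neighbours on chromosome 10 (GRCh37, chr10:5005445-5025475 on the plus strand, chr10:5029967-5060223 on the minus strand and chr10:5077546-5149878 on the plus strand). They are near-copies of each other, which bears on every value below. Each coding sequence is 972 bases long. AKR1C1 and AKR1C2 differ at 19 bases, AKR1C1 and AKR1C3 at 83 (91.5%), and AKR1C2 and AKR1C3 at 87 (91.0%). Of the 873 windows of 100 bases in the AKR1C1 coding sequence, 167 (19.1%) also occur letter for letter in AKR1C2 and 19 (2.2%) in AKR1C3. AKR1C2 and AKR1C3 share 72 such windows (8.2%). A read from such a window cannot be given to one gene. The 60 coding bases from position 103 to 162, counted from the A of the start codon in transcripts of GENCODE release 44 lifted to GRCh37, are shown because 10 of the 19 differences between AKR1C1 and AKR1C2 lie there. Capitals mark the 15 positions at which the 3 genes are not all alike.
AKR1C1: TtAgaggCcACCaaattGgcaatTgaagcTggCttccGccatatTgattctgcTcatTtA
AKR1C2: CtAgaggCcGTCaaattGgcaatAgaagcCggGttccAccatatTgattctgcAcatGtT
AKR1C3: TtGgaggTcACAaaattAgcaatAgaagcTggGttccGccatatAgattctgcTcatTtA

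The sequences before the start sites showed the same likeness. Of the 10 members, 9 matched the RefSeq promoter table, HSD17B2 being the other one. The 250 bases upstream of the RefSeq start (table of build GRCh38.p14, each found once in GRCh37, whose coordinates are given) were identical in 245 of 254 aligned columns (96.5%) between AKR1C1 and AKR1C2. AKR1C3 has 2 starts in the table, whose windows had 70.7% and 69.2% identity to that of AKR1C1. Of the motifs searched on both strands, 4 are reported: the CCAAT box (CCAAT), the GC box (GGGCGG), the TATA box (TATAAA) and the core of the antioxidant response element (TGACNNNGC). The CCAAT box stood on the minus strand in all 4 AKR1C windows and in no window of another member, and 32.0% of the 35116 promoters of the same length hold it. The windows of AKR1C1 (chr10:5005357-5005606, plus strand), AKR1C2 (chr10:5046050-5046299, minus strand) and the second AKR1C3 start (chr10:5136356-5136605, plus strand) are printed because the first 2 genes lay lower in every shPAX6 library below and the third overlapped between the groups. SRD5A1 (chr5:6633303-6633552, plus strand) is printed as a member of another kind, with 37.5% identity to AKR1C1, 28 CpG sites against 2, and a GC box. Capitals mark the CCAAT box, read as ATTGG on this strand, and in SRD5A1 the GC box, read as CCGCCC.
AKR1C1: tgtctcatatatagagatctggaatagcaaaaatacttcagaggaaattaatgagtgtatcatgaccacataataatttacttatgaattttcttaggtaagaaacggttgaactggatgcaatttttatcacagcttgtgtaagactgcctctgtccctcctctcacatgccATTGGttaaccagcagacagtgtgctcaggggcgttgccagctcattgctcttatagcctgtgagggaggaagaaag
AKR1C2: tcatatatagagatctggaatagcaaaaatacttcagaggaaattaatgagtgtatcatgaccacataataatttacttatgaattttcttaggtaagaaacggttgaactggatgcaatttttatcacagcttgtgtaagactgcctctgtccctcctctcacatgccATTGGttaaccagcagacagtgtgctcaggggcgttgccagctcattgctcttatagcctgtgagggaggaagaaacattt
AKR1C3: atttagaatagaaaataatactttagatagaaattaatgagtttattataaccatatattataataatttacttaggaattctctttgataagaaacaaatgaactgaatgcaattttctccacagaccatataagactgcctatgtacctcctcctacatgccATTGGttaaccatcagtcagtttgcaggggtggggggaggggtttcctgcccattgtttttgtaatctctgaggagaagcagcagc
SRD5A1: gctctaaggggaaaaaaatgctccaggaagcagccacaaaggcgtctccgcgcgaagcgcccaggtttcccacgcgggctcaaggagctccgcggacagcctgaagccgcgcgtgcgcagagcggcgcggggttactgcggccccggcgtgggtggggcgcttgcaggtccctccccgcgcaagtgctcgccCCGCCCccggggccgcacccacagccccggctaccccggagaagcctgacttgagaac
The GC box, on either strand, was also found before SRD5A2, SRD5A3 and HSD17B4 and is in 42.6% of promoters. The antioxidant response element core was found before SRD5A3 alone among the members (10.9% of promoters), and the TATA box before the other AKR1C3 start alone (10.7%). No match overlapped another, and a match is a description of these letters only.

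The libraries were checked first. PAX6 was at 0.839, 1.23 and 1.57 FPKM (fragments per kilobase of transcript, scaled to library size) in shCON and at 0.0153, 0.274 and 0.0778 FPKM in shPAX6, so the groups did not overlap, with a log2 fold change of -2.69 (SE 0.49, limma adjusted p = 0.054). The LNCaP libraries held 20468001 counts (parental) and 17945722 counts (LNCaP-ENZ). Of the prostate luminal markers, HOXB13 had 11374 and 10025 counts there, FOLH1 8171 and 7894, and KLK3 1817 and 1186. In DU145, HOXB13 and FOLH1 were listed at 0 in all 6 libraries, as were KLK2 and TMPRSS2. Of 13 fibroblast, leukocyte and endothelial markers, only COL1A1 and CD14 reached a mean of 0.5 FPKM in DU145. In LNCaP, COL1A1 went from 456 to 231 counts and VWF from 345 to 27, and the part of these in the values below was not tested. One DU145 library stood apart: the median level of tested features was 5.575 FPKM in shPAX6 replicate 1 and between 6.888 and 7.89 FPKM in the other 5. Over all tested features the log2 fold changes had a median of -0.12, and those below are to be read against that shift. The 4 epithelial markers were mixed, with a median log2 fold change of -0.52. CDH1 fell from 6.14 ± 0.844 to 1.26 ± 0.526 FPKM (SD, n = 3, limma adjusted p = 0.033; the call was lost in 7 of 17 alternatives), and its part in the values below was not tested. EPCAM was at 11.6 ± 0.129 and 6.84 ± 0.204 FPKM (SD, n = 3, limma adjusted p = 0.054), with no overlap, and KRT8 and KRT18 overlapped between the groups, at log2 fold changes of -0.28 and 0.07.

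In DU145, 6 of the 10 enzymes were detected in every library and none passed the adjusted threshold. HSD17B4 was the most abundant, followed by SRD5A1, SRD5A3, AKR1C3, AKR1C1 and AKR1C2. Over the 6 libraries the values of HSD17B4 and SRD5A1 did not overlap, nor did those of SRD5A1 and SRD5A3, or of AKR1C3 and AKR1C1, whereas SRD5A3 overlapped AKR1C3 and AKR1C1 overlapped AKR1C2. SRD5A1, SRD5A3, AKR1C3 and HSD17B4 passed the filter of a mean of 0.5 FPKM. Of these 4, 0 had a limma adjusted p under 0.05 and 0 an unadjusted p under 0.05, where 1.20% and 18.3% of the 13574 tested features did. Array weights gave 1 call, for SRD5A1, in a fit that called 33.7% of all features. Fold changes were below 0 for 3 of the 4, as for 62.9% of all tested features. The other 6 members were below the filter, so they were not tested in that fit.

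**Figure D1:**
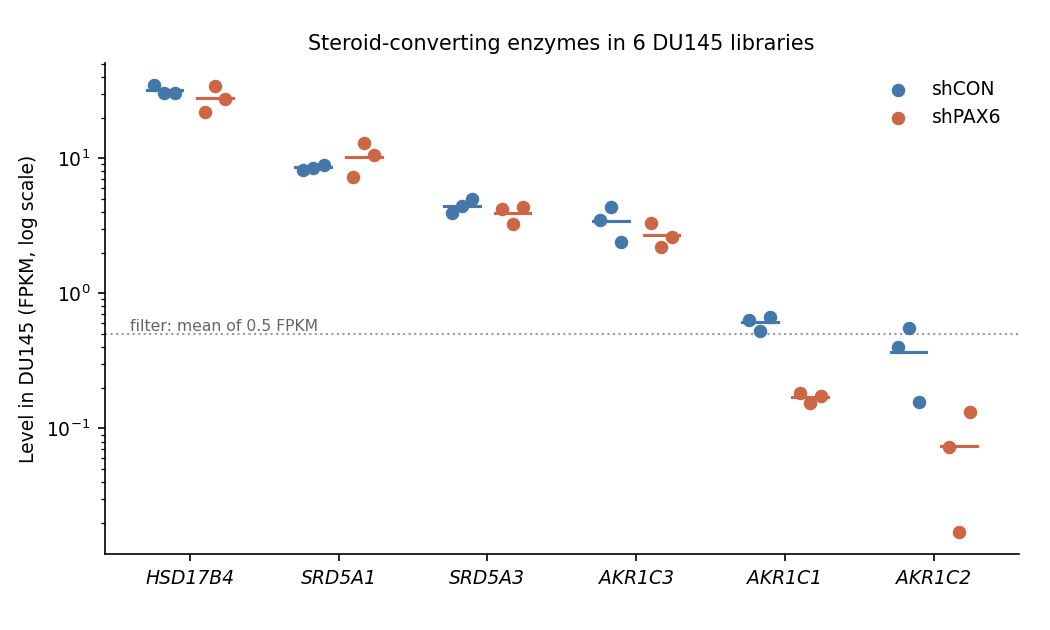
Level in FPKM (y axis, log scale) of the 6 members detected in every DU145 library (x axis). Each point is 1 library, short lines are group means (n = 3) and the dotted line is the filter of 0.5 FPKM. AKR1C1 and AKR1C2 are the genes whose shCON and shPAX6 points do not overlap, and both lie largely below or near the dotted line.

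The precursor enzymes were barely or not detected in DU145. CYP17A1 was at 0.0116 FPKM in shCON replicate 1 and listed at 0 in the other 5 libraries, and HSD3B1 was listed at 0 in all 6. In LNCaP, HSD3B1 rested on 5 counts in parental cells and 23 in LNCaP-ENZ (0.152 and 0.75 TPM, a level scaled for gene length and library size). Its log2 ratio of CPM (counts scaled to library size), with 0.1 CPM added, was 2.00, with a 95% exact interval of 0.96 to 4.14. That interval covers counting error in these 2 libraries only, and reads copied by PCR are not independent molecules. With 1 CPM added the ratio was 0.87. CYP17A1 had 3 counts in each library, which is the floor, so no ratio was formed. Reads of CYP17A1 and of WBP1L, which overlaps it on the opposite strand, cannot be told apart, since strand use in the counting is not given in the sources used here.

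The steroid reductases were represented by SRD5A1 and SRD5A3, and SRD5A2, the form best known from normal prostate, was at or under the floor in both lines. SRD5A2 had 0 counts in parental LNCaP and 3 in LNCaP-ENZ, and it was listed at 0 in all 6 DU145 libraries. The floor of 3 counts corresponds to 0.147 CPM in the parental library and to 0.167 CPM in the other.

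SRD5A1 was at 8.24, 8.42 and 8.94 FPKM in shCON and at 7.27, 13.0 and 10.5 FPKM in shPAX6. Replicates 2 and 3 of shPAX6 lay above all shCON libraries and shPAX6 replicate 1, the library with the low median, lay below them all. The means were 8.53 ± 0.362 and 10.2 ± 2.87 FPKM (SD, n = 3). The log2 fold change was 0.22 (SE 0.22, 95% interval -0.30 to 0.74, limma adjusted p = 0.66). Without shPAX6 replicate 1 it was 0.45 (limma adjusted p = 0.10), and without shPAX6 replicate 2 it was 0.03 (limma adjusted p = 0.92). In LNCaP, SRD5A1 had 662 counts in parental cells and 640 in LNCaP-ENZ (11.2 and 11.6 TPM), with a log2 ratio of 0.14 and an interval of -0.018 to 0.30 that included 0.

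SRD5A3 was at 3.96, 4.39 and 5.01 FPKM in shCON and at 4.22, 3.25 and 4.32 FPKM in shPAX6, which overlapped. The means were 4.45 ± 0.529 and 3.93 ± 0.589 FPKM (SD, n = 3), and the log2 fold change was -0.18 (SE 0.20, 95% interval -0.64 to 0.28, limma adjusted p = 0.70). In LNCaP, SRD5A3 was the member with the most counts, 2341 in parental cells and 2626 in LNCaP-ENZ (29.2 and 35.3 TPM). Its log2 ratio was 0.36, with an interval of 0.27 to 0.44. SRD5A3 overlaps the antisense gene SRD5A3-AS1 and a protein-coding model on the same strand, whose reads may be included.

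The order of these 2 enzymes differed between the tables. Per length, SRD5A1 was above SRD5A3 in all 6 DU145 libraries, by 2.08, 1.92 and 1.78 times in shCON and by 1.72, 4.00 and 2.43 times in shPAX6. In LNCaP, SRD5A3 was above SRD5A1, by 2.62 times in parental cells and by 3.04 times in LNCaP-ENZ. The DU145 and LNCaP tables were made and scaled separately, so that the cell line and the table cannot be told apart, and no test was made between them. Among detected genes of each library, SRD5A3 stood at percentiles of 48.1 to 55.8 in DU145 and of 91.9 and 93.6 in LNCaP, and SRD5A1 at 64.0 to 72.0 and at 80.4 and 82.2.

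**Figure D2:**
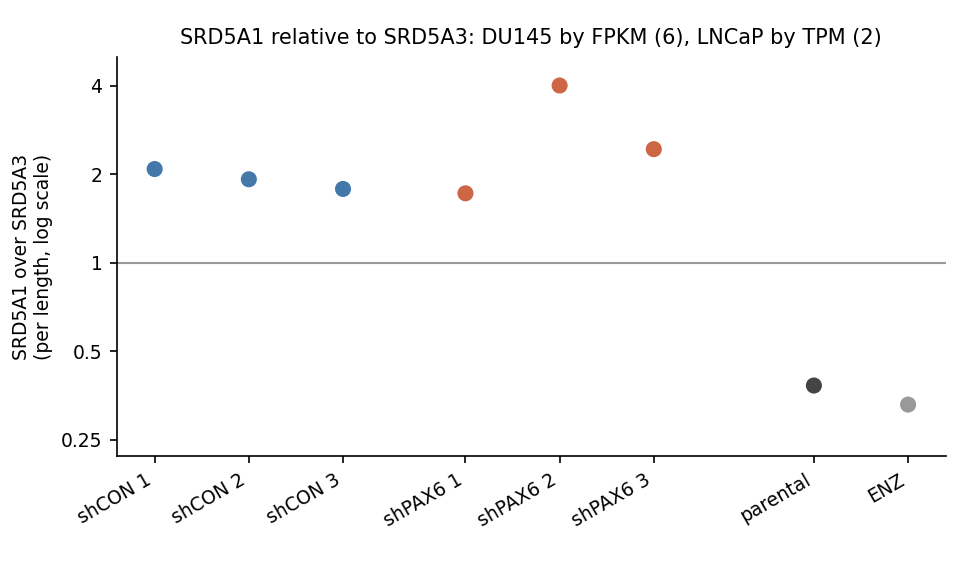
SRD5A1 level divided by SRD5A3 level (y axis, log scale) in each library (x axis), from FPKM in DU145 and TPM in LNCaP. Each point is 1 library. The 6 DU145 points lie between 1.72 and 4.00, above the line at 1, and both LNCaP points lie below it, at 0.382 and 0.329.

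The aldo-keto reductases held the 2 members whose DU145 groups did not overlap. AKR1C1 was at 0.639, 0.522 and 0.669 FPKM in shCON and at 0.183, 0.153 and 0.173 FPKM in shPAX6, so that every shPAX6 library was below every shCON library. The means were 0.610 ± 0.0778 and 0.170 ± 0.0153 FPKM (SD, n = 3), 3.59 times higher in shCON. AKR1C2 was at 0.399, 0.557 and 0.156 FPKM in shCON and at 0.0731, 0.0171 and 0.132 FPKM in shPAX6, with means of 0.371 ± 0.202 and 0.0740 ± 0.0574 FPKM (SD, n = 3), 5.01 times higher in shCON. The gap was narrow for AKR1C2, since its lowest shCON library, replicate 3, was close to its highest shPAX6 library. Of the 3236 features with a mean of 0.1 to 0.5 FPKM, 14.8% likewise lay lower in shPAX6 with no overlap. The exact permutation test gave p = 0.10 for each gene (two-sided), the smallest that 3 against 3 allows.

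Without the filter on low values, 20572 features entered the limma fit and 0.525% were called. AKR1C1 then had a log2 fold change of -1.39 on the log2(FPKM + 0.1) scale (SE 0.25, 95% interval -1.99 to -0.79), with an unadjusted p of 0.001 by limma and an adjusted p of 0.076, just above the threshold of 0.05. AKR1C2 also had -1.39, with a wider interval of -2.44 to -0.34, an unadjusted p of 0.017 by limma and an adjusted p of 0.21. In that fit 12.1% of features were lower in shPAX6 with an unadjusted p under 0.05. The adjusted p of AKR1C1 was 0.0088 with array weights, where 15.9% of features were called, and 0.041 with a pseudocount of 1 FPKM (log2 fold change -0.46), where 0.593% were, and it was above 0.05 in the other 12 alternatives, up to 0.39. A level this low also rests on few reads, and depth is unknown for the DU145 table. In bulk RNA, fewer expressing cells and less RNA per cell cannot be told apart.

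AKR1C3 did not show the same gap. It was at 3.51, 4.33 and 2.41 FPKM in shCON and at 3.33, 2.20 and 2.59 FPKM in shPAX6. These overlapped, with means of 3.42 ± 0.963 and 2.71 ± 0.573 FPKM (SD, n = 3), and the log2 fold change was -0.31 (SE 0.27, 95% interval -0.95 to 0.33, limma adjusted p = 0.62). The interval of AKR1C3 overlaps those of AKR1C1 and AKR1C2, and the difference between the genes' fold changes was not tested.

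**Figure D3:**
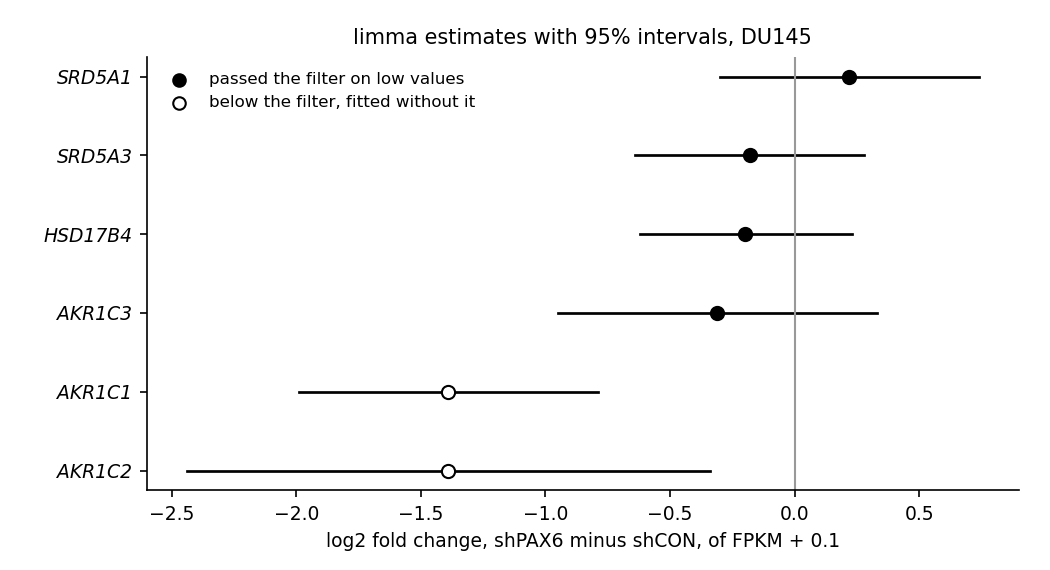
Log2 fold change, shPAX6 minus shCON (x axis), of the 6 detected members in DU145 from limma on log2(FPKM + 0.1), 3 libraries a group, with 95% intervals as lines. Filled points passed the filter on low values and their intervals include 0, and open points were fitted without the filter and have intervals below 0 before any adjustment.

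Because reads may be shared between the copies, sums are less open to misassignment than single genes. AKR1C1 and AKR1C2 summed to 1.04, 1.08 and 0.825 FPKM in shCON and to 0.256, 0.170 and 0.305 FPKM in shPAX6, with means of 0.982 ± 0.137 and 0.244 ± 0.0683 FPKM (SD, n = 3). These sums could not overlap, since each gene alone was already lower in every shPAX6 library, so their gap adds no support. With AKR1C3 added, the sums were 4.55, 5.41 and 3.24 FPKM against 3.58, 2.37 and 2.90 FPKM, which overlapped, and the log2 ratio of their means was -0.58. AKR1C3 made up 77.2%, 80.1% and 74.5% of this sum in shCON and 92.9%, 92.8% and 89.5% in shPAX6. That share is what AKR1C1 and AKR1C2 leave of the sum, so its gap between the groups is not separate support.

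In LNCaP the makeup per length was another one, and the cell line and the table cannot be told apart here either. AKR1C1 made up most of the summed TPM, 52.8% in parental cells and 54.9% in LNCaP-ENZ, and AKR1C3 21.7% and 21.6%. These shares rest on the gene lengths used, 1379 bases for AKR1C1, 4156 for AKR1C2 and 1980 for AKR1C3. By counts AKR1C2 was the highest of the 3 in both libraries. AKR1C1 had 39 counts in parental cells and 62 in LNCaP-ENZ (1.44 and 2.46 TPM), a log2 ratio of 0.83 with an interval of 0.26 to 1.48. AKR1C2 had 57 and 80 counts (0.699 and 1.05 TPM), a log2 ratio of 0.66 with an interval of 0.17 to 1.20. AKR1C3 had 23 and 35 counts (0.592 and 0.969 TPM), a log2 ratio of 0.74 with an interval of -0.0044 to 1.62 that just included 0. All 3 ratios were above 0 and their intervals overlapped widely. The summed counts were 119 and 177, with a log2 ratio of 0.75 and an interval of 0.42 to 1.11. Among the 2044 genes with mean counts in the range of these 3, 10.8% had an interval above 0.

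**Figure D4:**
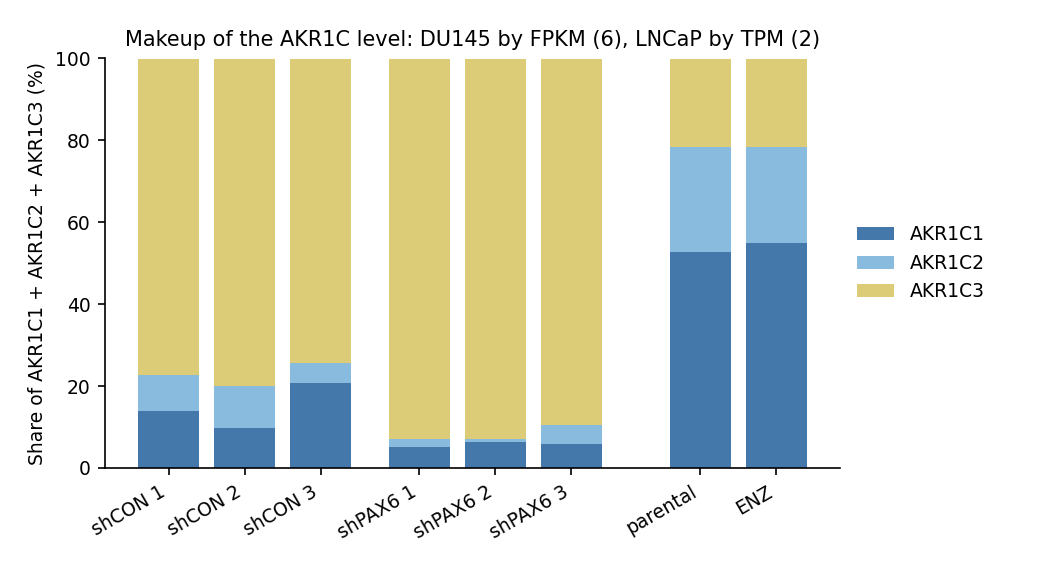
Share in percent (y axis) of AKR1C1, AKR1C2 and AKR1C3 in their summed level in each library (x axis), from FPKM in DU145 (3 shCON and 3 shPAX6) and TPM in LNCaP (parental and ENZ). AKR1C3 takes 74.5% or more in every DU145 library and below 22% in both LNCaP libraries. Its share is higher in each shPAX6 library than in any shCON library, while its level overlaps between the groups. The share is what AKR1C1 and AKR1C2 leave of the sum.

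The hydroxysteroid dehydrogenases were opposite in level. HSD17B2 had 0 counts in both LNCaP libraries and was at or under 0.0355 FPKM in DU145, listed at 0 in 3 of 6 libraries. HSD17B4 stood high among detected genes in every library, at percentiles of 81.3 to 87.2 in DU145 and of 91.7 and 90.4 in LNCaP. In DU145 it was at 34.6, 30.2 and 30.3 FPKM in shCON and at 22.1, 34.5 and 27.5 FPKM in shPAX6. The lowest was again shPAX6 replicate 1, and the groups overlapped. Means were 31.7 ± 2.49 and 28.0 ± 6.23 FPKM (SD, n = 3), and the log2 fold change was -0.20 (SE 0.18, 95% interval -0.62 to 0.23, limma adjusted p = 0.63).

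Within a library, HSD17B4 was 4.19, 3.58 and 3.39 times SRD5A1 in shCON and 3.04, 2.65 and 2.62 times in shPAX6, so the ratio did not overlap between the groups (3.72 ± 0.418 and 2.77 ± 0.234, SD, n = 3). The ratio was picked after its values were seen and has no test. Of single tested features, 26.7% did not overlap either, and the share for ratios of 2 genes was not computed. In LNCaP it was 2.57 in parental cells and 2.09 in LNCaP-ENZ. The LNCaP counts of HSD17B4 were 1654 in parental cells and 1301 in LNCaP-ENZ (28.7 and 24.3 TPM), a log2 ratio of -0.16 with an interval of -0.26 to -0.05. This ratio was close to the median of all expressed LNCaP genes, -0.15, and was -0.01 with TMM scaling and 0.02 with DESeq2 size factors.

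Across LNCaP, 7 members were above the floor and the intervals of 5 left out 0, 4 above it (HSD3B1, SRD5A3, AKR1C1 and AKR1C2) and 1 below it (HSD17B4). Of all 21870 genes above the floor, 50.1% had such an interval, 16.7% above 0 and 33.4% below. With TMM scaling 6 members had one, all above 0, with SRD5A1 at a log2 ratio of 0.29 and AKR1C3 at 0.88 now among them. The TMM factors (1.05 for parental, 0.951 for LNCaP-ENZ) raise the ratios of all genes. The share of all genes with such an interval under TMM was not computed, so this count is not a result about the members. There is no replicate check of any LNCaP difference, since each arm has 1 library.

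**Figure D5:**
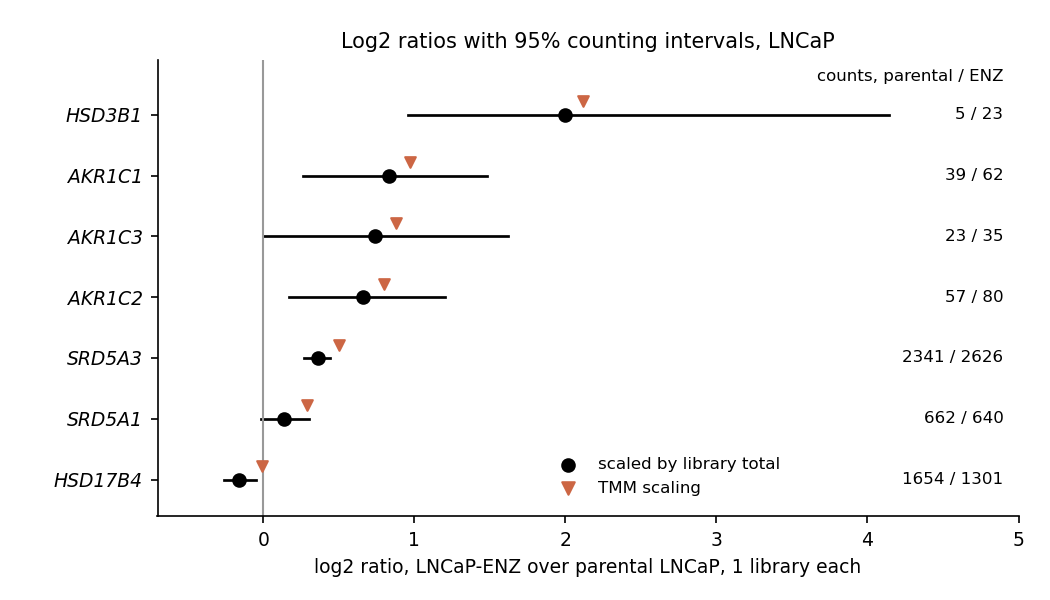
Log2 ratio of LNCaP-ENZ over parental LNCaP (x axis) for the 7 members above the floor, 1 library each, with 95% intervals for counting error only as lines and the counts at the right. Circles are scaled by the library total and triangles by TMM. HSD3B1 has the highest ratio, 2.00, on 5 and 23 counts, and HSD17B4 is the member below 0, with its triangle at -0.01.

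The wider steroid pathway was read from 9 lists of genes. Among the other hydroxysteroid dehydrogenases, 11 of 18 were tested in DU145 and 1 was called, beside 1.20% of all features. HSD3B7, an enzyme of bile acid synthesis, fell from 33.5 ± 2.71 to 15.8 ± 2.28 FPKM (SD, n = 3). Its log2 fold change was -1.09 (SE 0.15, limma adjusted p = 0.028). The limma adjusted p was 0.14 to 0.24 without shPAX6 replicate 3 or without any 1 shCON library, 0.10 with median centring and 0.17 with the replicate block. The 3 shCON libraries were at 31.1, 32.9 and 36.4 FPKM and the 3 shPAX6 libraries at 15.8, 13.5 and 18.1 FPKM. In LNCaP the same gene went from 1192 to 1458 counts, a log2 ratio of 0.48. The list's median log2 fold change was -0.05 in DU145, against -0.12 for all features. In LNCaP, 4 of its 13 genes above the floor had intervals above 0 and 4 below, beside 16.7% and 33.4% of all genes, led by HSD17B14, from 43 to 118 counts (log2 ratio 1.60), and by HSD17B7, an enzyme that also serves cholesterol synthesis, from 1147 to 372 counts (log2 ratio -1.43).

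Enzymes that supply or remove steroids had no call in DU145, where 1.20% of all tested features were called. Of cholesterol entry and side-chain cleavage 4 of 6 genes were tested, of other P450 steps and their electron donors 3 of 7, of sulfation and desulfation 7 of 9, and of glucuronidation and hydroxylation 3 of 14, with 0 called in each. Their median log2 fold changes were -0.07, -0.27, -0.15 and -0.02. H6PD, which supplies reduced cofactor in the endoplasmic reticulum, was at 5.18 ± 0.789 FPKM in shCON and 2.23 ± 0.774 FPKM in shPAX6 (SD, n = 3). Its log2 fold change was -1.23 and a limma adjusted p of 0.083. In the glucuronidation list 8 of 14 genes were listed at 0 in all DU145 libraries, whereas 11 were above the floor in LNCaP. There UGT2B17, which conjugates androgens, went from 172 to 272 counts (log2 ratio 0.84) and UGT2B11 from 192 to 46 (log2 ratio -1.83). The sequences of these UGT2B genes were not compared, so reads shared between such genes were not checked. FDXR, the ferredoxin reductase of mitochondrial P450 enzymes, went from 519 to 243 counts (log2 ratio -0.90).

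Of the 9 other aldo-keto reductases, 5 were tested in DU145 and 0 were called, beside 1.20% of all features. The list's median log2 fold change was -0.06. AKR1B1, an aldose reductase, was at 204, 211 and 185 FPKM in shCON and at 143, 104 and 119 FPKM in shPAX6. Its log2 fold change was -0.72, with a limma adjusted p of 0.074. AKR1B10, a retinal reductase, was at 0.562 ± 0.357 and 1.34 ± 0.320 FPKM (SD, n = 3). Its log2 fold change was 1.22 and a limma adjusted p of 0.19. Both genes had groups that did not overlap, in opposite directions, as did 26.7% of tested features. In LNCaP AKR1B1 had 34 and 22 counts.

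NRF2, the transcription factor of the antioxidant response, is known to drive AKR1C genes, and its response genes were listed for that reason. In DU145, 21 of 23 were tested, 1 was called higher (0.177% of all features were) and 0 lower, and the median log2 fold change was 0.19 against -0.12 for all features. NQO1, a quinone reductase and a standard readout of NRF2, rose from 449 ± 44.3 to 867 ± 82.6 FPKM (SD, n = 3). Its log2 fold change was 0.95 (SE 0.15, limma adjusted p = 0.040), and 10 of 17 alternatives put its adjusted p above 0.05, up to 0.30 under limma. KEAP1, the inhibitor of NRF2, was at 18.3 ± 1.95 and 9.26 ± 4.70 FPKM (SD, n = 3). Its log2 fold change was -1.13 and a limma adjusted p of 0.21. Without shPAX6 replicate 1, where it was at 3.99 FPKM, KEAP1 was at -0.62 on the log2 scale (limma adjusted p = 0.047), and without shPAX6 replicate 2 at -1.46 (limma adjusted p = 0.048). Those fits called 920 and 903 of the 13574 features, against 163 with all libraries. In 14 of 17 alternatives the limma adjusted p of KEAP1 stayed above 0.05, up to 0.58. Of the 21 tested genes, 16 lay above 0 and 5 below. CBR3 was at 0.82 on the log2 scale (limma adjusted p = 0.13) and ALDH3A1 at -1.01 (limma adjusted p = 0.2). In LNCaP, 10 of the 23 had intervals above 0 and 6 below, beside 16.7% and 33.4% of all genes. The median log2 ratio was 0.26 against -0.19 for all genes above the floor. NQO1 went from 804 to 1834 counts (log2 ratio 1.38) and UGT1A6 from 20 to 58 (1.63). The other way, SLC7A11 went from 1006 to 390 counts (log2 ratio -1.17) and CBR3 from 179 to 86 (-0.85).

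The features most like the summed AKR1C level over the 6 DU145 libraries were CAPS (Pearson r = 0.997), an unnamed transcript (r = 0.986), PYURF (r = 0.979), CCNE1 (r = 0.972) and BUD13 (r = 0.971), and 92 of 13574 features had r above 0.9. For SRD5A1 they were DYNLL2 and ARSB (both r = 0.995), ARID3B (r = 0.994), ZNF260 and CENPE (both r = 0.993), and 754 features had r above 0.9. CAPS was at 1.07, 1.20 and 0.808 FPKM in shCON and at 0.863, 0.603 and 0.698 FPKM in shPAX6, the order of the AKR1C sums. DYNLL2 was lowest in shPAX6 replicate 1, at 12.2 FPKM, and highest in shPAX6 replicate 2, at 18.1 FPKM, as SRD5A1 was. These correlations are descriptions over 6 libraries that share the difference in median level noted above.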

How the data were processed

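RNA-seq tables of 2 LNCaP and 6 DU145 libraries were used. ATAC-seq samples of the series were left out. In the LNCaP table the authors gave gene counts and TPM. The deposited DU145 values were treated as FPKM from StringTie, since the file does not name the unit. The methods name HISAT2 and GRCh37, and the labels name another library kit than the methods. The methods also name a count test, which could not be used on FPKM. Samples were grouped by their labels.

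DU145 values were tested with limma 3.58.1 (R 4.3.3; lmFit and eBayes, trend on) after a log2 transform with 0.1 FPKM added, for features averaging 0.5 FPKM or more, two-sided, with Benjamini-Hochberg adjustment over all 13574. LNCaP ratios are log2 of CPM + 0.1, with 95% exact Clopper-Pearson intervals from the split of the counts. The floor was 3 counts. TMM factors came from edgeR 4.0.16 and size factors from DESeq2 1.42.0. GC content came from the longest transcript of each gene. The limma step was tested on simulated data. Alternatives were other pseudocounts, filters, scalings, array weights, a GC correction, a replicate block and libraries left out. Those that pair no filter with another choice were added after seeing the data.

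Members and lists were chosen with earlier results of these data known. Genes named are all members, PAX6, cell type markers, the 2 largest changes in each direction per pathway list, and the 5 features most like the AKR1C sum or SRD5A1. A gene that this rule also covers is not reported here.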

Additional observations from a re-analysis of the deposited data

How the results depend on the processing

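Of 466 recomputed values, 393 kept their direction and their side of the threshold or moved by less than the counting error, and 2 changed direction. SRD5A3 in DU145 was at 0.004 on the log2 scale with quantile normalization (limma adjusted p = 0.99), and HSD17B4 in LNCaP was at a log2 ratio of 0.02 with DESeq2 size factors. Both scalings shift the median of all genes. The SRD5A3 value had no call to lose, and the interval of HSD17B4 lay below 0 as reported. Array weights called 1 DU145 member, SRD5A1, at 0.30 on the log2 scale (limma adjusted p = 0.042), and called 4569 features in all against 163. The cause was not tested. Among the alternatives planned beforehand, the count of members called was 0 with each library left out and 0 in each other one. Of those added later, which pair no filter with another choice, 2 called AKR1C1. These were array weights (limma adjusted p = 0.0088) and a pseudocount of 1 FPKM (limma adjusted p = 0.041). Log2 fold changes with a library left out ran from 0.03 to 0.45 for SRD5A1, -0.26 to -0.05 for SRD5A3, -0.53 to -0.12 for AKR1C3 and -0.36 to -0.04 for HSD17B4. Without the filter they ran from -1.48 to -1.33 for AKR1C1 and from -1.77 to -1.10 for AKR1C2. Over all features the calls ran from 0 to 920 with a library left out, were 236 with quantile normalization (74 higher, 162 lower), 100 with median centring (28 higher, 72 lower), 222 with the GC correction (100 higher, 122 lower) and 24 higher and 139 lower as reported.

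The replicate numbers did not pair the DU145 libraries: deviations of equally numbered libraries correlated at -0.17, -0.37 and 0.052. With the replicate block 0 members and 0 features were called, with 1568 features at an unadjusted p under 0.05 by limma against 2480 without it. With no filter, the adjusted p of AKR1C1 was 0.39 under the block.

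Fold changes in DU145 correlated with GC content across genes (Spearman's rho -0.36 over the 12009 features with a value, 88.5%). HSD17B4 has 36.4% GC and only 4.23% of tested features have less, and after the GC correction it was at -0.24 (limma adjusted p = 0.27). AKR1C1, without the filter, was at -1.35 (limma adjusted p = 0.059). Depth limits the LNCaP values of HSD3B1 and the AKR1C genes, and the depth of the DU145 table is unknown.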

Other observations

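The 10 partners of HSD17B4 in peroxisomal beta-oxidation were all tested in DU145 and 0 passed the adjustment, beside 1.20% of all features. The log2 fold change was below 0 in 9 of the 10, beside 62.9% of all features. At an unadjusted p under 0.05 by limma 4 of the 10 were lower, beside 14.1% of all features. The median log2 fold change was -0.36 against -0.12 for all features. ACOX3, an acyl-CoA oxidase, was at 11.0, 12.1 and 11.5 FPKM in shCON and at 6.92, 8.22 and 8.23 FPKM in shPAX6 (-0.57 on the log2 scale, limma adjusted p = 0.11). PEX5, the import receptor of peroxisomal enzymes, was at 11.1, 10.3 and 11.5 FPKM against 5.35, 9.22 and 7.93 FPKM (-0.57 on the log2 scale, limma adjusted p = 0.23). With the GC correction both were at -0.32. ABCD3, a peroxisomal transporter, was the 1 gene above 0, at 0.35 (limma adjusted p = 0.54). In LNCaP 2 of the 10 had intervals above 0 and 4 below, beside 16.7% and 33.4% of all genes. SCP2, a thiolase and lipid carrier, went from 1075 to 587 counts (log2 ratio -0.68).

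The partners of SRD5A3 in dolichol synthesis and the first steps of N-glycosylation did not move one way in DU145. All 6 were tested, 3 lay above 0 and 3 below, and 0 passed the adjustment, beside 1.20% of all features. The list's median log2 fold change was -0.02. DHDDS and NUS1 are the subunits of the enzyme that makes the polyprenol chain. In DU145 DHDDS was at -0.32 on the log2 scale (limma adjusted p = 0.32) and NUS1 at 0.27 (limma adjusted p = 0.50). In LNCaP 4 of the 6 had intervals above 0 and 1 below, beside 16.7% and 33.4% of all genes. DHDDS went there from 402 to 520 counts (log2 ratio 0.56) and NUS1 from 1902 to 1007 (log2 ratio -0.73), beside SRD5A3 from 2341 to 2626.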
